A study of Homo sapiens with 2 samples.

Results

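ChIP-seq binding regions of the transcription factor TCF7L1 were examined at 36 genes of the Eph, ephrin, Slit, Robo and netrin families, out of 20046 protein-coding genes in GENCODE release 44. The members were 9 EphA and 5 EphB receptors, 5 ephrin-A and 3 ephrin-B ligands, 3 Slits, 4 Robo receptors, 2 netrins and 5 netrin receptors, on 16 chromosomes. A binding summit, the position of highest read stacking in a called region, was assigned to a gene when it lay inside the gene or within 100 kb of the transcription start site (TSS) of any of its transcripts. A summit within 2.5 kb of a TSS was called a promoter summit. The study compared 2 samples, each of 1 library. Both were HCT116 colon adenocarcinoma cells, stable lines kept in puromycin, in which endogenous TCF7L1 was knocked down by lentiviral delivery of the shRNA shTCF7L1-2. In both, doxycycline at 1 µg/ml induced a FLAG-tagged cDNA from the plasmid pCW57.1, made resistant to the shRNA. It was TCF7L1 in the first sample and TCF7L1-MUT, which carries substitutions in the HMG box that contacts DNA, in the second, and chromatin was precipitated with an antibody to FLAG. The binding is therefore that of an induced, tagged protein. Whether each line was a single clone was not stated in the sources used here, and transcript levels were not analysed here.

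TCF7L1 belongs to the TCF/LEF family, which binds DNA through an HMG box and carries Wnt signals from β-catenin to target genes. TCF7L1 acts mostly as a repressor. Eph receptors are receptor tyrosine kinases whose ligands, the ephrins, sit on the surface of neighbouring cells, so that contact between cells sets off attraction or repulsion. In the intestine, EphB receptors and ephrin-B ligands are known to keep crypt and villus cells in their places, and EPHB2 and EPHB3 are known targets of β-catenin and TCF. Slits are secreted ligands that repel cells and axons through Robo receptors. Netrins attract or repel through DCC and the UNC5 receptors, and DCC was first described as a gene deleted in colorectal cancer.

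The TCF7L1 list held 3762 summits in 3663 regions and the TCF7L1-MUT list held 224 summits in 204 regions. In the TCF7L1 list, 28 summits in 27 regions were assigned to 9 of the 36 members. In the TCF7L1-MUT list no summit was assigned to a member. The sequences of the 4 promoter regions of members are shown first, 1 a region, because they are the binding positions closest to a start of transcription. They are given on the plus strand of hg38, 100 bases to either side of the summit, and those of EPHA3 and EPHA6 stop at the base before the transcript. Capitals mark a match to the TCF core pattern, CTTTGNN where each N is A or T, searched on both strands.
ROBO2 promoter, upstream summit, chr3:77038647-77038847: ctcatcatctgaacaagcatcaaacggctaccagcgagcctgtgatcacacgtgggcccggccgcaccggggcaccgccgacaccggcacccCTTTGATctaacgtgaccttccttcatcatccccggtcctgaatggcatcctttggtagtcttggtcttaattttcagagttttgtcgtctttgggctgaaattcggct
ROBO1 promoter, chr3:79017859-79018059: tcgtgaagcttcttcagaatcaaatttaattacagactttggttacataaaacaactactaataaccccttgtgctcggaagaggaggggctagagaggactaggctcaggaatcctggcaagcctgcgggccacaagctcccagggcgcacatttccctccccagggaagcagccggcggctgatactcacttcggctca
EPHA3 promoter, chr3:89107496-89107620: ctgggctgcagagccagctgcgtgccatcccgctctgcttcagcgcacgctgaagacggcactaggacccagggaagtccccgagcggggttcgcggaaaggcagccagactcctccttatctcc
EPHA6 promoter, chr3:96814474-96814580: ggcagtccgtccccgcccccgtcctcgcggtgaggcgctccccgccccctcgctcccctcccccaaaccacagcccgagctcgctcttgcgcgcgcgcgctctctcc

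Of these 4 windows, only the ROBO2 window held the core pattern, as CTTTGAT starting 8 bases before the summit. G and C shares were taken over the full window, 100 bases to either side of the summit, including the bases not shown. On that count, the EPHA6 window was the richest in G and C, at 73.1%, followed by EPHA3 at 61.2%. The 4 strongest other summits of members, by fold enrichment, are shown next in the same way.
EFNA5 intron, chr5:107653267-107653467: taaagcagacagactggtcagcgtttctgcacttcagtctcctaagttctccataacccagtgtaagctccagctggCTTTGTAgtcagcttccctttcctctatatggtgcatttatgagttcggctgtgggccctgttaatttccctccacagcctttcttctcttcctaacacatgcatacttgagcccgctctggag
ROBO2 intron, first, chr3:77179928-77180128: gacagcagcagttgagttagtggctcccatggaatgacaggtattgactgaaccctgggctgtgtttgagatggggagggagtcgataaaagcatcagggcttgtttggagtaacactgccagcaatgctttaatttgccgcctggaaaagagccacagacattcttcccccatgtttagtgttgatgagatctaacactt
EPHA3 intron, chr3:89114414-89114614: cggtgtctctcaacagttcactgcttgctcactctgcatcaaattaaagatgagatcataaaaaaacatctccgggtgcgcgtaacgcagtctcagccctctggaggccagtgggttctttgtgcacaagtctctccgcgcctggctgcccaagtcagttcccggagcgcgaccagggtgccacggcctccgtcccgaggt
ROBO2 intron, second, chr3:77304330-77304530: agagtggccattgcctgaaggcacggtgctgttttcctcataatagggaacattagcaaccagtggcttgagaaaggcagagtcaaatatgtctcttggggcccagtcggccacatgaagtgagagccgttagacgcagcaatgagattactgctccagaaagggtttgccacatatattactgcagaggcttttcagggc

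Among these, the EFNA5 window held the core pattern, as CTTTGTA starting 23 bases before the summit. The other 3 held none. A match is only a string of letters in the window, and a window without one says nothing about the factor.

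The first comparison asked whether the families held TCF7L1 summits more often than protein-coding genes in general. A promoter summit lay at 4 of 36 members (11.1%, Wilson 95% interval 4.41 to 25.3), namely ROBO2, ROBO1, EPHA3 and EPHA6, against 4.86% of all protein-coding genes. A summit inside the gene or within 100 kb of a TSS was found for 9 of 36 (25%, 13.8 to 41.1), against 23.1% of all. Both intervals included the background, so neither share stood apart from that of all genes. The intervals cover counting error only, and neighbouring members are not independent. EFNA4, EFNA3 and EFNA1 adjoin each other on chromosome 1, and ROBO3 adjoins ROBO4 on chromosome 11. The 4 members with a promoter summit also lie in the same stretch of chromosome 3, described below.

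Under the wider rule, inside the gene or within 100 kb of a TSS, gene length set part of the sequence searched. The members were long, with a median of 112 kb against 27.4 kb for all protein-coding genes. Under the promoter rule, the number and spacing of TSSs set the sequence searched, not gene length. Promoter shares were not compared among genes with like numbers of TSSs. Among the 18 members of 100 kb or longer, 4 had a promoter summit (22.2%, 9 to 45.2; 12.0% of all genes of that length). A summit by the wider rule was found for 8 of these 18 (44.4%, 24.6 to 66.3; background 36.4%). Among the 18 shorter members, none had a promoter summit (interval up to 17.6%; background 3.27%) and 1, EFNB2, had one by the wider rule (5.56%, 0.988 to 25.8; background 20.1%). Each of these intervals again included its background.

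**Figure D1:**
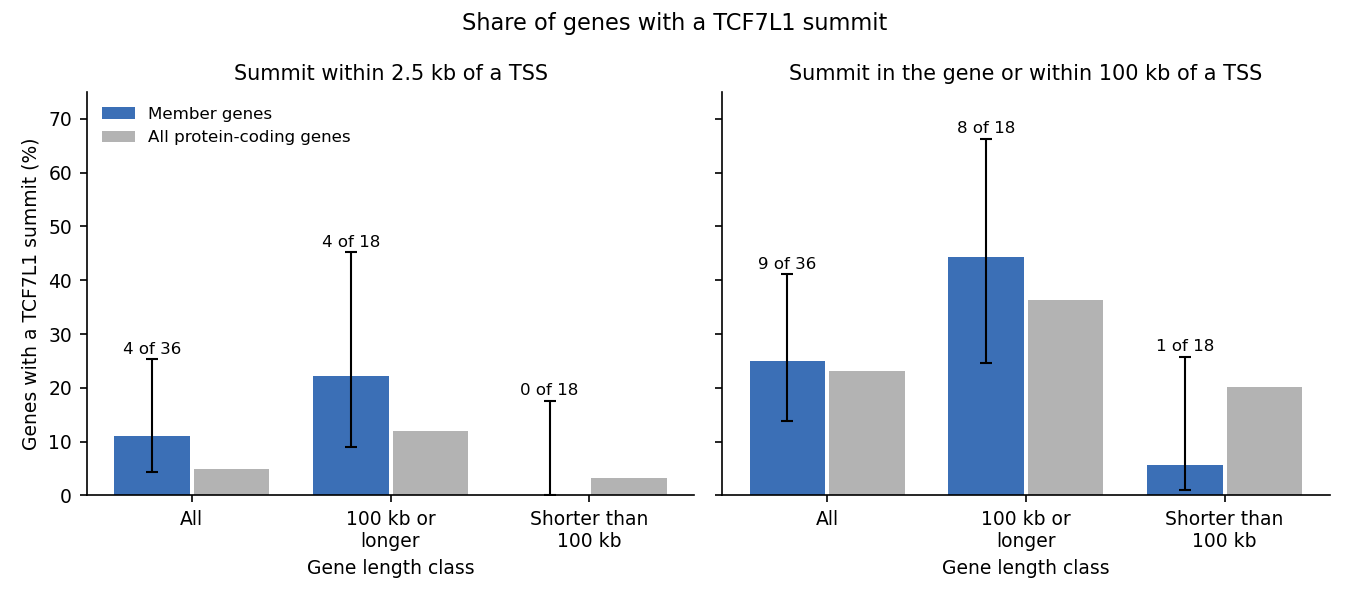
Share of genes (%) with a TCF7L1 summit within 2.5 kb of a TSS (left) and inside the gene or within 100 kb of a TSS (right), by gene length class. Blue bars are the member genes with Wilson 95% intervals, grey bars are all protein-coding genes, and every grey bar lies within the interval of the blue bar beside it, from 4 of 36 against 4.86% to 1 of 18 against 20.1%.

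The Robo receptors held 12 of the 28 summits, 7 at ROBO2 and 5 at ROBO1, which encode neuronal receptors for Slits and lie on chromosome 3. In the promoter region of ROBO2 (ENSG00000185008.19), at chr3:77038574-77039709, the region was 1136 bp wide and held a pair of summits, 1139 and 696 bp upstream of a TSS. Both were listed with a fold enrichment of 4.45 over the local background, at a −log10 q-value of 7.09. The reads at each summit, 29 (exact Poisson 95% interval 19.4 to 41.6), were solved from the fold enrichment and p-value, as were all read numbers below. This TSS is an internal one, and the summits lay 1132052 and 1132495 bp from the 5′ end of the 1743 kb gene. ROBO1 (ENSG00000169855.21) had its promoter summit at chr3:79017791-79018124, 585 bp downstream of an internal TSS and 750039 bp from the 5′ end of the gene. Its fold enrichment was 4.54, its −log10 q-value 7.89 and its reads 31 (21.1 to 44). Thus at both Robo genes the promoter binding lay at an internal start and not at the outermost one.

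Inside the ROBO2 introns, 5 more summits were listed. The strongest, at chr3:77179868-77180360, had a fold enrichment of 6.52 with 14 reads (7.65 to 23.5) and a −log10 q-value of 6.07, and lay 139298 bp downstream of the nearest TSS. The next had a fold of 6.08 and 16 reads (9.15 to 26.0) at chr3:77304287-77304596, 263700 bp downstream of the nearest TSS. The third, at chr3:76203381-76203970, had a fold of 6.07 and 19 reads (11.4 to 29.7), and lay 107333 bp upstream of the nearest TSS. These reads overlap in their intervals, so the order of the 3 is not firm. The last pair had folds of 5.71 and 4.19. Within ROBO1, the strongest other summit lay in an intron at chr3:78872130-78872569, 146187 bp downstream of the nearest TSS, with a fold of 5.79 from 17 reads (9.90 to 27.2), at a −log10 q-value of 5.99. The remaining 3 had folds from 5.13 to 5.55, and 1 of them lay beyond the 3′ end of the gene, 99785 bp from a TSS and so just within the 100 kb limit. ROBO3, known from midline crossing of axons, and ROBO4, the endothelial Robo, had none, with the nearest TCF7L1 summit 1092235 and 1072100 bp away.

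**Figure D2:**
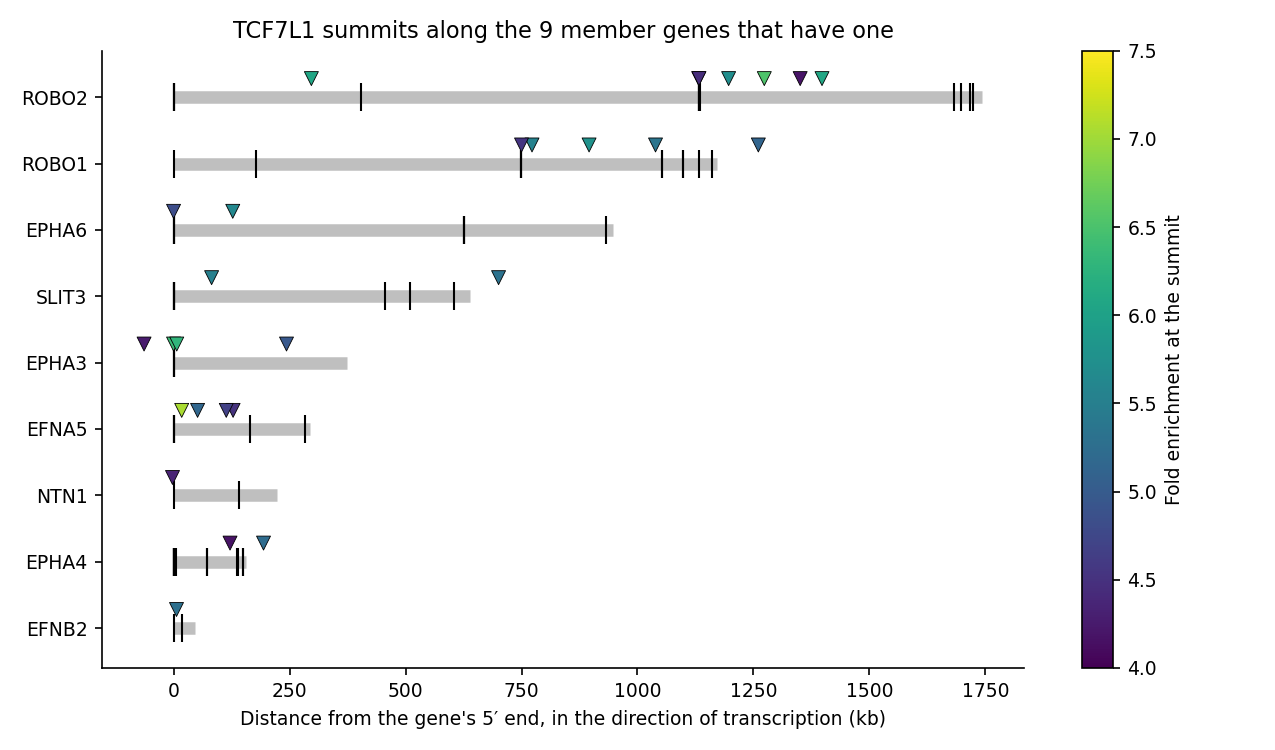
The 28 TCF7L1 summits (triangles, coloured by fold enrichment) along the 9 member genes that have one, with distance in kb from the 5′ end in the direction of transcription. Grey bars are the genes and black ticks their TSSs; the promoter summits of ROBO2 and ROBO1 sit at internal ticks, 1132495 and 750039 bp from the 5′ end, whereas those of EPHA3 and EPHA6 sit at the 5′ end.

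Among the EphA receptors, which bind mainly ephrin-A ligands, 3 of 9 had summits, 8 in all. EPHA3 (ENSG00000044524.11) had 4, of which the promoter one, in the region chr3:89107356-89107903, lay 25 bp before the TSS. There the fold enrichment was 6.38, the −log10 q-value 8.78 and the reads 22 (13.8 to 33.3), and by fold it ranked 646 of 3762. A further EPHA3 summit lay 6838 bp downstream in an intron, at chr3:89114256-89114812, with a fold of 6.29 from 17 reads (9.90 to 27.2) and a −log10 q-value of 6.77. These separate regions had like folds. The other EPHA3 summits had folds of 4.25 (63567 bp upstream) and 4.95 (243416 bp downstream, in an intron). The promoter summit of EPHA6 (ENSG00000080224.18), at chr3:96814324-96814682, lay 7 bp before the TSS. It was the weakest of the promoter regions by q-value, with a −log10 q-value of 2.85, a fold of 4.82 and 11 reads (5.49 to 19.7). Its second summit, in an intron, had a fold of 5.63. EPHA4, which can bind ephrins of both classes, had a pair of summits at folds of 5.23 and 4.17, 45267 and 14975 bp from the nearest TSS. EPHA1, EPHA2, EPHA5, EPHA7, EPHA8 and EPHA10 had none, and of these EPHA2, a receptor common in epithelia, was closest to a summit, at 299079 bp.

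None of the 5 EphB receptors had a summit. EPHB2 and EPHB3, the crypt receptors named above, were 657323 and 1206859 bp from the nearest TCF7L1 summit. The study's introduction names EPHB3 among the genes that earlier work found to be repressed by TCF7L1. EPHB1 was at 309067 bp and EPHB6, whose kinase domain is inactive, at 869874 bp. EPHB4, the vascular receptor of ephrin-B2, was the closest of them, 131267 bp from a summit. That summit, in the region chr7:100958467-100958904, had a fold of 3.32 (−log10 q-value 2.39), and the region overlapped a TCF7L1-MUT region at chr7:100958512-100958811 with a fold of 4.29 (−log10 q-value 5.37). Both lay outside the 100 kb limit, and the fold enrichments come from separate libraries and were not compared.

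Of the ephrin-A ligands, which are held in the membrane by a lipid anchor, EFNA5 alone had summits, all 4 in introns. The one at chr5:107653129-107653578, 17260 bp downstream of the nearest TSS, was the strongest of the 28 by fold enrichment. Its fold was 7.05, its −log10 q-value 9.94 and its reads 22 (13.8 to 33.3), and it ranked 366 of 3762 by fold. The other 3 EFNA5 summits had folds from 4.50 to 5.16. EFNA4, EFNA3 and EFNA1 were 126355, 141455 and 190494 bp from the nearest TCF7L1 summit, and EFNA2 was 1145383 bp away. For EFNA4, the closest of all members without one, the summit lay in a region at chr1:154937201-154937556 with a fold of 4.55.

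Of the ephrin-B ligands, which span the membrane and can signal in the cell that carries them, EFNB2 had 1 summit. It lay in an intron at chr13:106529119-106529561, 6322 bp downstream of the TSS, with a fold of 5.28 and 40 reads (28.6 to 54.5). Its −log10 q-value of 12.9 was the highest of the 28, whereas by fold it ranked 1510 of 3762. The local background there, 6.76 reads, was also the highest of the 28. EFNB1 and EFNB3 had none, at 252110 and 131685 bp from the nearest summit.

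The Slit and netrin ligands gave 3 summits. SLIT3, a Slit gene of 639 kb, had 1 in an intron at chr5:169218910-169219395, 81619 bp downstream of the nearest TSS, with a fold of 5.51 from 31 reads (21.1 to 44) and a −log10 q-value of 10.3. Its other summit lay beyond the 3′ end of the gene and was nearer to a TSS of PANK3, 21210 bp away, than to one of SLIT3, 95733 bp away. It was the only one of the 28 for which another protein-coding gene was nearer. SLIT1 and SLIT2 had none, and SLIT2 was the farthest of all members from a summit, at 2440569 bp. NTN1, which encodes netrin-1, had 1 summit at chr17:9017154-9017713, 4142 bp upstream of its TSS and so just outside the promoter limit. Its fold was 4.34, from 25 reads (16.2 to 36.9), at a −log10 q-value of 5.71. NTN4, a netrin of basement membranes, was 151433 bp from the nearest summit.

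The 5 netrin receptors had no summit, although DCC, at 1196 kb, was the second longest of the 36 genes. Its nearest TCF7L1 summit was 1591628 bp from a TSS. UNC5A, UNC5B, UNC5C and UNC5D, which mediate repulsion by netrins, were 1723034, 647958, 707649 and 1376063 bp away. Over all 27 members without a summit, the median distance was 708 kb.

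**Figure D3:**
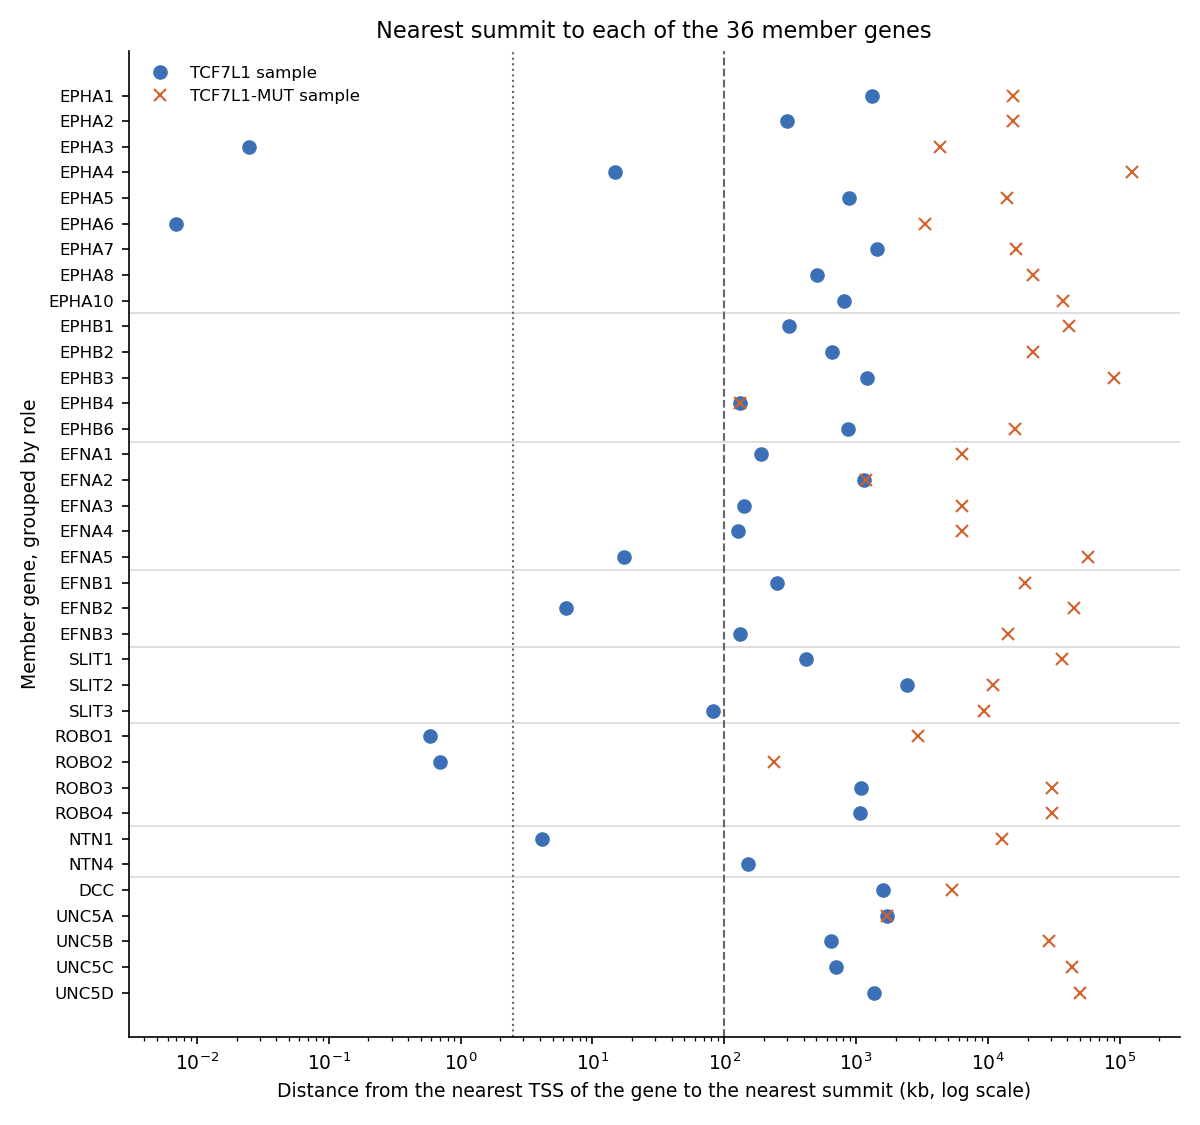
Distance in kb (log scale) from the nearest TSS of each of the 36 member genes to the nearest summit of the TCF7L1 sample (circles) and of the TCF7L1-MUT sample (crosses), grouped by role. The dotted and dashed lines mark 2.5 and 100 kb; 4 circles lie left of the dotted line, 9 left of the dashed line, and no cross lies left of either.

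In the TCF7L1-MUT sample no member had a promoter summit (0 of 36, Wilson interval up to 9.64%; background 0.0948%) or a summit by the wider rule (0 of 36; background 0.803%). With so few summits in the list, 0 of 36 lay within the range of the background. Over the 35 members on a chromosome with a TCF7L1-MUT summit, the nearest one lay at a median of 15507 kb, from 131 kb for EPHB4 to 123987 kb for EPHA4. None of the 28 member summits lay in a region that overlapped a TCF7L1-MUT region, against 1.56% of the 2947 TCF7L1 summits assigned to any protein-coding gene and 3.80% of all 3762. At ROBO2, the member with most TCF7L1 summits, the nearest TCF7L1-MUT summit was 237476 bp from a TSS.

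The members' summits were of ordinary strength for the list. Their median fold enrichment was 5.25 (binomial 95% interval 4.68 to 5.63), with quartiles of 4.53 and 5.73, and all TCF7L1 summits had a median of 4.98 with quartiles of 4.21 and 5.89. The range was 4.17, at EPHA4, to 7.05, at EFNA5. The 5 promoter summits had a median of 4.54, beside 4.57 for the promoter summits of all protein-coding genes. The ROBO2 pair among them shares a region and a fold of 4.45, so that region entered this median once for each summit. Over the 28 member summits the median −log10 q-value was 5.89, beside 5.44 for all summits. EPHA3 was the only member whose promoter summit exceeded a fold of 5.

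**Figure D4:**
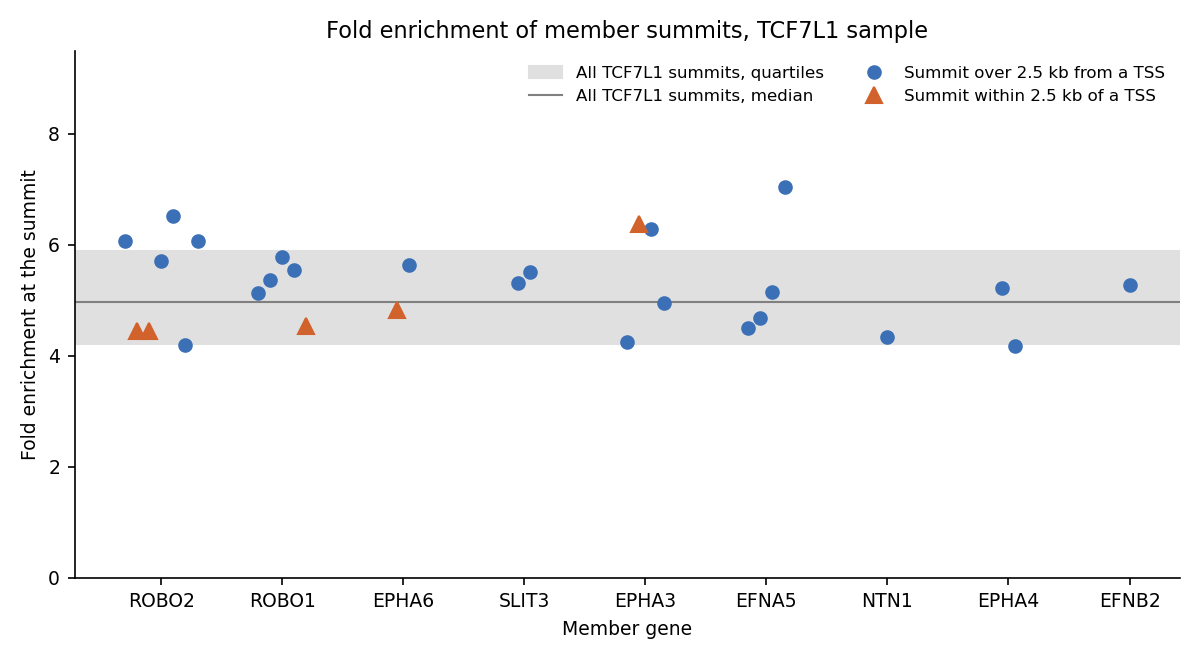
Fold enrichment at each of the 28 member summits in the TCF7L1 sample, by gene. Orange triangles are promoter summits, blue circles the others, and the grey line and band give the median (4.98) and quartiles (4.21 and 5.89) of all TCF7L1 summits; EFNA5 has the highest point, at 7.05, and of the promoter summits only that of EPHA3, at 6.38, lies above the band.

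Counted per length of sequence searched, the members had 1.79 summits per Mb (28 in 15.6 Mb, exact Poisson 95% interval 1.19 to 2.59), against 1.45 per Mb (1.40 to 1.5) for all protein-coding genes. The difference was within the counting error of the members. By gene, ROBO2 with 7 was among 43 protein-coding genes with at least as many summits, ROBO1 with 5 among 93, and EPHA3 and EFNA5 with 4 each among 182. ROBO2 and ROBO1 are also among 71 protein-coding genes of at least 1000 kb. Those 71 had a median of 2.00 summits, 23 of them (32.4%) had none, as DCC did, and 9 had 5 or more. The highest count among the 71 was 16, and 6 of them, ROBO2 included, had 7 or more.

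The promoter summits of members were all on chromosome 3. Of the 6 members there, ROBO2, ROBO1, EPHA3 and EPHA6 had 18 of the 28 summits, while EPHB1 and EPHB3 had none. Their density was 3.17 per Mb (1.88 to 5.01), against 1.45 per Mb (1.25 to 1.66) for all protein-coding genes of chromosome 3, of which 6.57% had a promoter summit. The 30 members on other chromosomes had 10 summits, 1.00 per Mb (0.481 to 1.85), no promoter summit, and 5 of 30 (16.7%) by the wider rule. This split was made after the values were seen and is given as a description. The 4 genes lie in 1 stretch of 21.9 Mb, chr3:75906695-97761532, which held 30 TCF7L1 summits, or 1.37 per Mb, beside 1.19 per Mb over all of chromosome 3. Of those 30, 18 were the members' own and 12 were other summits, so the density of the stretch includes that of the members. Of its other 16 protein-coding genes, 4 had a promoter summit (VGLL3, CHMP2B, DHFR2 and NSUN3) and 8 had one by the wider rule, where 6.57% and 23.3% of the protein-coding genes of chromosome 3 did. Promoter summits in this stretch were thus found at neighbours of the members too.

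The members' summits mostly lay in introns (21 of 28), and the other 7 were intergenic. The same shares over all TCF7L1 summits are not given here, and the rule counts any summit inside a gene, so this is not a trait of the members. The classes include the promoter summits, with those of ROBO2 and ROBO1 counted as intronic and those of EPHA3 and EPHA6 as intergenic. In 24 of 28 (85.7%) the window was mostly single-copy sequence, against 78.2% of all TCF7L1 summits. The 4 multi-copy windows were 1 each at EPHA3 and EPHA6 and 2 at EFNA5, where most of the 31-base words of the window occurred elsewhere in the genome. Some reads there may not be placed with certainty, but the mapping of reads was not examined. The TCF core pattern was found in 5 of 28 windows, 100 bases to either side of the summit (17.9%, Wilson 7.88 to 35.6), against 26.6% (25.2 to 28.1) of the 3730 TCF7L1 windows on the reference sequence. The 5 windows were 1 at ROBO2, 2 at ROBO1, 1 at EPHA3 and 1 at EFNA5. The AP-1 pattern, TGACTCA or TGAGTCA, was in 3 windows (10.7%, 3.71 to 27.2; 7.21% of all), 2 at ROBO2 and 1 at NTN1. The forkhead pattern, TATTTAC or TGTTTAC, was in 2 (7.14%, 1.98 to 22.6; 12.4% of all), 1 each at EPHA3 and SLIT3. For each of the 3 patterns, all searched on both strands, the members' interval included the share over all windows.

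The same counts were made for 56 other genes of these pathways. A promoter summit was found at 10 of 56 (17.9%, Wilson 10.00 to 29.8), against the 4.86% of all protein-coding genes given above, and 21 of 56 (37.5%, 26.0 to 50.6) had one by the wider rule, against 23.1%. Both intervals lay above the background over all genes. The shares were also taken by gene length, and whether length accounts for the difference was not tested. Among the 35 of 100 kb or longer, 6 had a promoter summit (17.1%, 8.10 to 32.7) and 16 one by the wider rule (45.7%, 30.5 to 61.8), and both intervals included the 12.0% and 36.4% of all genes of that length. Among the 21 shorter ones, 4 had a promoter summit (19.0%, 7.67 to 40.0), above the 3.27% background, and 5 one by the wider rule (23.8%, 10.6 to 45.1), which included the 20.1%. The list was drawn up with earlier results of these data known. By group, promoter summits lay at 5 of 21 Eph and ephrin effectors, 3 of 15 cytoskeletal effectors, 1 of 8 further netrins and netrin receptors, 1 of 2 RGM ligands, and none of 10 Robo and Slit partners. NEO1, which encodes neogenin, the receptor related to DCC, had a summit 696 bp past a TSS with a fold of 5.31 (−log10 q-value 8.82). RGMA, a ligand of neogenin, had a fold of 4.24. ADAM10, the protease that cleaves ephrin-A ligands, had its summit 33 bp downstream of a TSS with a fold of 4.37, and FYN, a kinase downstream of ephrins and Ephs, had a fold of 4.26. The others were PIK3R1 (4.78), SDCBP (5.67), ITSN1 (3.20), ENAH (5.11), ABLIM1 (3.51) and CDC42 (3.18). The −log10 q-values of CDC42, ITSN1 and ABLIM1 were low, at 1.51, 1.85 and 2.03, where the lowest of all TCF7L1 summits was 1.31. The alternative settings given below covered the members only, not these 56 genes. Neither the promoter nor the wider rule gave any of the 56 a TCF7L1-MUT summit.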

How the data were processed

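Per the submitters' processing notes and the study's methods, reads were trimmed with skewer, checked with FastQC, mapped to GRCh38/hg38 with BWA (0.7.12) and peaks were called in each sample with MACS2 (2.1.0). The control library, the threshold and the handling of duplicates are not given in the sources used here. The deposited lists give each summit's fold enrichment, a ratio of reads to local background by the authors' peak caller, with −log10 p-values and −log10 q-values. The deposited summit lists repeat the positions and the −log10 q-values (3762 of 3762 and 224 of 224 equal). Read depth per library was not analysed here, and coordinates are 1-based.

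Summits were assigned to GENCODE release 44 genes in Python (3.11.15) with pandas (2.3.3), and sequences were read with pysam (0.24.0). Whole reads at a summit were solved from the fold enrichment and p-value with a pseudocount of 1, with a largest error of 1.3e-05 in −log10 p. A window was multi-copy when at least 50% of its 31-base words occurred more than once over 194 assembled sequences. Shares have Wilson and densities exact Poisson 95% intervals (scipy 1.17.1). Each group had 1 sample, so no p-value was computed and no difference between the samples was tested. Every member with a promoter summit was described in full, as were the 6 strongest other summits by fold enrichment, and other summits were described further after their values were seen. The members, the pathway list and the rules were chosen with earlier results of these data known. Alternatives covered the thresholds on q and fold, 1 summit a region, regions overlapping TCF7L1-MUT, the TSS set, the distances, the nearest gene, single-copy sequence and the pattern window. The assignment of summits to genes and the solving of read numbers were tested on simulated data. The sequence around the downstream summit of the ROBO2 promoter region is not reported here.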

Additional observations from a re-analysis of the deposited data

How the results depend on the processing

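Of 49 alternative values for 7 results, 43 stayed within 1.5 times the reported count or within the interval of the reported value, and 6 moved beyond it. With only summits of fold enrichment of at least 5, member summits dropped from 28 to 17 and members with a promoter summit from 4 to 1, EPHA3 (background 1.92%). With the 5′ end of the gene alone as TSS, members with a promoter summit numbered 2, EPHA3 and EPHA6 (background 3.41%). At 200 kb in place of 100 kb, 15 members had a TCF7L1 summit (background 35.8%) and 1, EPHB4, a TCF7L1-MUT summit. With 250 bases to either side of the summit, the core pattern was in 39.3% of member windows, against 48.0% of all TCF7L1 windows. A wider window holds more sequence, and a stricter threshold leaves fewer summits. No paired analysis was possible because there was 1 sample in a group, and for the same reason no sample could be left out. The lists hold only regions above the peak caller's threshold, so a member without a summit is not shown to be unbound. The promoter summits rested on 11 to 31 reads, and the intervals do not cover the spread between cultures. The split by chromosome and the comparison with genes of at least 1000 kb were chosen after the data were seen.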
